A study of Homo sapiens with 18 samples.

Results

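Regions at the start sites of long non-coding RNA (lncRNA) genes made up 2822 of the 115087 regions in the deposited accessibility table. A region was taken when it lay on chromosomes 1 to 22, within 500 bases of a start site of any lncRNA gene of GENCODE release 44 on GRCh37 (hg19), and more than 3 kb from every protein-coding start site. Of 18702 annotated lncRNA genes, 2697 had at least 1 such region. The study measured accessibility by ATAC-seq, in which Tn5 transposase inserts adapters into open chromatin, in the head and neck squamous carcinoma lines SCC1, SCC6 and SCC25. Each line was grown with the EGFR antibody cetuximab at 100 nM, or with PBS as the untreated control, over 5 days. There were 3 libraries for each line and treatment except SCC1 PBS, which had 2 because SCC1 PBS replicate 2 was not analysed here. All 3 are established tumour lines and nothing in the labels says that replicates were separate cultures, so p-values measure only the spread between these 17 libraries.

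A lncRNA is an RNA polymerase II transcript without a long open reading frame that is usually capped and often spliced like a messenger RNA. Some act at the locus that makes them, some build nuclear bodies, and some serve mainly as hosts from which microRNAs or small nucleolar RNAs (snoRNAs) are cut. Their start sites range from CpG islands like those of housekeeping genes to CpG-poor elements that resemble enhancers and bind factors such as AP-1, the FOS and JUN dimers that act downstream of EGFR signalling.

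Both kinds of start site can be read in the central 300 bases of 6 regions, given 5′ to 3′ on the strand of the lncRNA from the GRCh37 genome. MALAT1 (chr11:65264941-65265240, plus strand) and MIR17HG region 1 (chr13:91999795-92000094, plus strand) are shown as CpG islands, with each CpG in capitals, and hold 37 and 42 of them. Their GC content over these bases was 73.0% and 71.0%.
MALAT1: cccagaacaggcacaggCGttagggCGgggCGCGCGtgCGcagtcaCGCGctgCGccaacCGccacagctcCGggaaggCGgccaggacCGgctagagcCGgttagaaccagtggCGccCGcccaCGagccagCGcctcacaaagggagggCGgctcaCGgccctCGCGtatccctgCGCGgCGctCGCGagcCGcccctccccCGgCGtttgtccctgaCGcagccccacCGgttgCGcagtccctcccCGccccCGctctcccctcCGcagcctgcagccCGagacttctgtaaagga
MIR17HG region 1: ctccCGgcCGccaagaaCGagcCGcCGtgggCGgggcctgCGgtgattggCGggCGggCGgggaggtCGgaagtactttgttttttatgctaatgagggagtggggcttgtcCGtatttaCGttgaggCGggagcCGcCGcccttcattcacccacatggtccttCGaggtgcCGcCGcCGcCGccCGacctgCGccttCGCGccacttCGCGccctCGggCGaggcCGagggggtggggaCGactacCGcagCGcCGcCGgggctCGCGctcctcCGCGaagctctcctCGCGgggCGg

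The other 4 regions are CpG-poor, changed with cetuximab in at least 1 line, and hold the AP-1 letters TGANTCA, which are in capitals. They were picked as examples, and 38.7% of all CpG-poor members hold these letters. Whether the letters go with a change under cetuximab was not tested. LUCAT1 region 1 (chr5:90607599-90607898, minus strand) was called less accessible in SCC1 and SCC6, and ZNF133-AS1 (chr20:18295474-18295773, minus strand) in SCC1. ENSG00000236283 (chr2:165848084-165848383, plus strand) and KLHL6-AS1 (chr3:183266074-183266373, plus strand) were named for a rise in SCC6. LUCAT1 region 1 holds 3 matches and the other regions 1 each.
LUCAT1 region 1: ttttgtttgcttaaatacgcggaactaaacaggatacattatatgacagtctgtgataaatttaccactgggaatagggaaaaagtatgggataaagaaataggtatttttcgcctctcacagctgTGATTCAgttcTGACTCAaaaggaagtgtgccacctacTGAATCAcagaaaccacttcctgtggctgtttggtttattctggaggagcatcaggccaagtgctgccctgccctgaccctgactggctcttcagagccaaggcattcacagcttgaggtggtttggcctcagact
ZNF133-AS1: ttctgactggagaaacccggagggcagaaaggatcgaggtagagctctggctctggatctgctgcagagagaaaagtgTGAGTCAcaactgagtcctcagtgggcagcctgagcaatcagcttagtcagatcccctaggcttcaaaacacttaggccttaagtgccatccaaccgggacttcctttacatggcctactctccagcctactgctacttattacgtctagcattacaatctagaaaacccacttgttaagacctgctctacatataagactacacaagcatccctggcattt
ENSG00000236283: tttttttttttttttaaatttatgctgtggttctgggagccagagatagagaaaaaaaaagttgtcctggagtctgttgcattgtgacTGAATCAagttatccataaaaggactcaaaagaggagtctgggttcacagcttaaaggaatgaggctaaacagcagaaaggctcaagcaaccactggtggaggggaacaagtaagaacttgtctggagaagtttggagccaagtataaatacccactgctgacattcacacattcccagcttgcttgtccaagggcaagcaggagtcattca
KLHL6-AS1: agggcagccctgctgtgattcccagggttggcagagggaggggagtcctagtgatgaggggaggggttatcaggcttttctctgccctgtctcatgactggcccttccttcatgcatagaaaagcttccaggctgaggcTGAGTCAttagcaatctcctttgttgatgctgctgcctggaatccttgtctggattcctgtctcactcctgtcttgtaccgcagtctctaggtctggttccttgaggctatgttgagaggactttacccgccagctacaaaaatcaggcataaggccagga

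Some lncRNA genes are hosts of microRNAs, and 2 of them, MIR100HG and MIR99AHG, carry microRNAs of the same families. Their mature sequences from RefSeq (GRCh38.p14) are shown with the seed, bases 2 to 8, in capitals. The microRNAs of the 2 hosts share the seed ACCCGUA (miR-100 and miR-99a), GAGGUAG (let-7a and let-7c) or CCCUGAG (miR-125b, identical from both).
hsa-miR-100-5p: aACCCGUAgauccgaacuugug
hsa-miR-99a-5p: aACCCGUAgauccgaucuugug
hsa-let-7a-5p: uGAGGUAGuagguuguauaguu
hsa-let-7c-5p: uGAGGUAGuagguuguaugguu
hsa-miR-125b-5p: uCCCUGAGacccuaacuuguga

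The deposited signal of a region is its read count times 1 scaling step per library. Comparison across libraries therefore rests on that scaling, and comparison between regions must take their width into account. Reads in regions ranged from 2194851 to 15017130 per library, and the median member held 16 to 102 reads. In each library 6.80% to 16.1% of members were at the floor of 1 read, to which the authors set regions without reads. Promoter regions of the epithelial genes CDH1, EPCAM and TP63 were open in all 3 lines. Those of KRT5, KRT14, KRT6A, DSG3 and PKP1, genes of squamous keratins and desmosomes, had median signals of 26.6 to 113 in SCC1 and 33.2 to 96.3 in SCC25. In SCC6 they were only 1.00 to 9.36, so these keratin and desmosome markers do not bear out the squamous label in that line. TP63, also a squamous marker, had medians of 33.1 in SCC1, 24.9 in SCC6 and 35.7 in SCC25, so the squamous markers were split in SCC6. No promoter region was listed for the leukocyte genes PTPRC and CD3E, the endothelial genes PECAM1, CDH5 and VWF, or the fibroblast genes COL3A1, PDGFRB and DCN, while CD14 and COL1A1 had one.

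LncRNA start regions stood between protein-coding start regions and distal regions in width, base composition and openness. Their median width was 367 bases, against 546 bases for the 13497 regions within 500 bases of a protein-coding start and 233 bases for the 86087 regions more than 3 kb from every start site. Median GC content was 53.9% in members, 65.9% at protein-coding starts and 43.8% in distal regions. A region was called CpG-rich at 50% GC or more with an observed over expected CpG ratio of at least 0.6, which held for 774 members (27.4%), 79.2% of protein-coding starts and 2.60% of distal regions. The mean signal over all libraries per kb of region width had a median of 104 in members, 161 at protein-coding starts and 81.9 in distal regions. Of the members, 1727 (61.2%) contained a lncRNA start site and the others lay up to 500 bases from one. The median member lay 50.1 kb from the nearest protein-coding start.

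Peaks that the authors called per library overlapped 272 members (9.64%) in every one of the 17 libraries, against 22.7% of protein-coding starts and 2.09% of distal regions. Another 7 members had no peak in any single library. The share of members under a peak ran from 19.3% in SCC1 cetuximab replicate 2 to 78.3% in SCC25 PBS replicate 1, and in each library it fell between the shares of the other classes. The libraries at these ends had 2194851 and 13408698 reads in regions. Peaks in every library of 1 line and in no other library were found over 72 members for SCC6, 20 for SCC25 and 7 for SCC1. As shares these were 2.55%, 0.709% and 0.248% of members, and 7.35%, 0.747% and 0.110% of all regions. The deepest library had 15017130 reads in regions in SCC6, 13408698 in SCC25 and 4171650 in SCC1. The part of depth in these shares and counts was not tested.

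**Figure D1:**
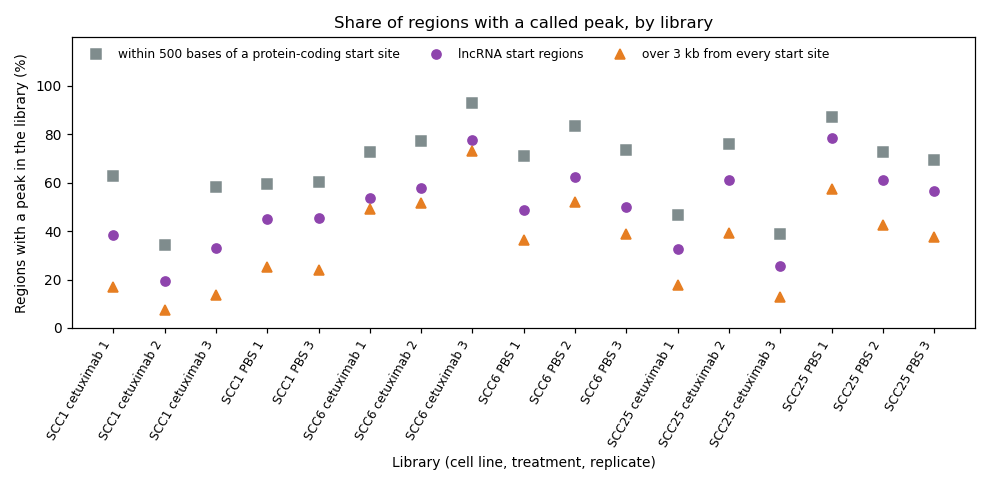
Share of regions (percent, y axis) that overlap a called peak by at least 1 base in each of the 17 libraries (x axis), for lncRNA start regions, protein-coding start regions and distal regions. In every library the lncRNA starts, at 19.3% to 78.3%, lie between the other classes.

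Sequence patterns of 3 kinds were searched for in the central 300 bases of each region on both strands. The AP-1 letters TGANTCA, which are their own reverse complement, were found in 30.0% of members, 7.88% of protein-coding starts and 35.2% of distal regions. The TFAP2 letters GCCNNNGGC, also their own reverse complement, were found in 19.7%, 35.2% and 7.82% in that order, and TATAAA in 10.5%, 4.09% and 23.2%. Among members the AP-1 letters were in 38.7% of the 2048 CpG-poor regions, of which LUCAT1 and ZNF133-AS1 above are examples, and in 6.98% of the 774 CpG-rich regions such as MALAT1. The order was turned for the TFAP2 letters, at 12.7% of CpG-poor and 38.0% of CpG-rich members. A match is a match of letters and not a mapped site.

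The members were far from uniform. CpG-rich members were wider, with a median of 539.5 against 324 bases, had a median signal per kb of width of 118 against 101, and had a peak in every library in 18.99% against 6.10% of cases. The 188 members with lncRNA starts on both strands had a median width of 612 bases, a median signal per kb of 128 and a peak in every library in 25% of cases, while the 2634 with starts on 1 strand had 353 bases, 102 and 8.54%. By position, 2273 members were intergenic, 418 lay inside a protein-coding gene on the opposite strand and 131 inside one on the same strand. The antisense members held the AP-1 letters in 38.3%, the intergenic members in 28.9% and the sense members in 22.9%. The median signal per kb was 122 for the 335 members 3 to 10 kb from a protein-coding start and 82.9 for the 446 members over 200 kb away.

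Gene names give another view of the same regions. Most members, 1500 (53.2%), carried a gene identifier without a symbol and had a median signal per kb of 101. The 655 LINC members, long intergenic RNAs by name, had 110.2, the 247 antisense (AS) members 113 and the 73 members of microRNA or snoRNA host genes (HG) 125. The host gene members were CpG-rich in 45.2% of cases and the LINC members in 24.7%. There were also 25 divergent (DT) and 9 intronic (IT) transcripts, and 313 members with other symbols. A pseudogene tag was carried by 224 members, which had a median GC content of 64.4% and a peak in every library in 17.4% of cases, with a median signal per kb of 74.8 against 106 in the others. Pseudogenes have near-identical copies, so reads there may have been split or dropped in mapping, and their values are uncertain.

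A group of 97 members stood at the floor of 1 read in every library, with a peak in a median of 6 libraries. Of these, 40 had a peak in 9 or more libraries, 29 carried the pseudogene tag, and their median GC content was 62.6%. MIR1302-2HG, in a subtelomeric segment that has copies on other chromosomes, had a peak in 14 libraries, and MIR200CHG, host of the epithelial miR-200c, in 8. A low value there cannot be read as closed chromatin.

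Values on either side of the limits of the rule were as follows. The 168 members 400 to 500 bases from a lncRNA start had a median signal per kb of 92.5, and the 195 regions just outside, 500 to 600 bases away, had 93.4. At the other limit, the 53 members 3 to 4 kb from a protein-coding start had a median of 130.4, and the 73 excluded regions 2 to 3 kb away had 154.

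The members with the highest mean signal, a measure in which wide regions count for more, were open in every library of every line, and 2 of the 5 differed widely between lines. ENSG00000289159 (chr9:73033146-73035945, intergenic, 3.57 kb from KLF9) was 533 ± 1.15 (SD, n = 2) in SCC1 PBS, 767 ± 16.7 (SD, n = 3) in SCC6 PBS and 1755 ± 64.0 (SD, n = 3) in SCC25 PBS. ENSG00000271252 (chr1:96208018-96208849, intergenic) was 444 ± 54.7 (SD, n = 2), 224 ± 12.7 (SD, n = 3) and 1349 ± 129 (SD, n = 3) in the same order. LINC02018 (chr3:75484211-75485168), LINC02021 (chr3:129830170-129831378, in the gene ALG1L2 on its strand) and GASAL1 region 1 (chr8:103818501-103819948) were more even, and their library values ran from 429 to 805, 379 to 707 and 369.7 to 947. LINC02018 shares its start with FAM86DP, and the FAM86 and ALG1L genes have near-identical copies, so these levels are uncertain. By the limma fit described below, LINC02018, GASAL1 region 1 and ENSG00000271252 were called for cetuximab in SCC1. With each library's trend of signal with GC content removed, the adjusted p was 0.741, 0.550 and 0.0809. GASAL1 region 1 was also called over all lines, with 0.122 after that removal.

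The effect of cetuximab in SCC1 was asked first. Of 2488 tested members, 124 (4.98%) became more accessible and 165 (6.63%) less accessible, shares near those of all 86298 tested regions (4.58% and 6.56%). The calls are from limma at an adjusted p under 0.05 on log2(signal + 1). In bulk libraries a lower signal in every cell and a smaller number of open cells cannot be told apart. STAU2-AS1, named for the gene of the double-stranded RNA-binding protein Staufen2, and ZNF133-AS1 fell, and MRPL23-AS1 and ENSG00000258115 rose. In each single line, the members described first were picked from calls whose treated and PBS libraries did not overlap. Their lack of overlap was thus fixed by the choice and adds no support.

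At STAU2-AS1 (chr8:74332070-74332552, intergenic by gene span) the signal in SCC1 was 34.3, 19.5 and 36.0 with cetuximab and 135 and 146 with PBS, log2 change -2.25 ± 0.32 (SE), adjusted p = 6.2e-09. All treated libraries lay far below both PBS libraries. The median change of the 93 other tested regions within 1 Mb was -0.11. ZNF133-AS1 (chr20:18295266-18295981, antisense inside ZNF133, a zinc finger gene) was 100.3, 115 and 122 with cetuximab and 328 and 288 with PBS, log2 change -1.45 ± 0.21 (SE), adjusted p = 1e-08, and the groups did not overlap. Its neighbours changed by a median of -0.32. ENSG00000233096 (chr3:41012731-41013536, intergenic) was 47.0, 64.2 and 40.7 with cetuximab and 165 and 201 with PBS, log2 change -1.85 ± 0.27 (SE), adjusted p = 1.3e-08. ENSG00000290827 (chr11:57640738-57640989, pseudogene-tagged and so uncertain) was 2.54, 3.89 and 10.95 with cetuximab and 100.2 and 71.5 with PBS, log2 change -3.86 ± 0.57 (SE), adjusted p = 2.4e-08. It was nearly closed in all 3 treated libraries and open in both PBS libraries, while its neighbours' median change was -0.20.

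Among members that rose in SCC1, ENSG00000258115 (chr12:72451138-72451508, antisense inside TPH2, the neuronal tryptophan hydroxylase gene) was 81.2, 64.2 and 56.3 with cetuximab and 19.5 and 12.3 with PBS, log2 change 2.03 ± 0.38 (SE), adjusted p = 1.6e-05. ENSG00000231705 (chr10:134232316-134232759, intergenic) was 239.9, 200.5 and 209.7 with cetuximab and 96.3 and 104 with PBS, log2 change 1.10 ± 0.21 (SE), adjusted p = 3.7e-05. In both, the lowest treated library was above the higher PBS library, and the neighbours' median changes were -0.13 and 0.07. MRPL23-AS1 (chr11:2011183-2011561, intergenic, near the mitochondrial ribosomal protein gene MRPL23) was 141, 140.1 and 161 with cetuximab and 59.8 and 64.8 with PBS, log2 change 1.23 ± 0.25 (SE), adjusted p = 9.4e-05, with 0.54 in its neighbours. FAM86C2P (chr11:67572707-67573662, a pseudogene-tagged CpG-rich region) was 358, 202 and 329 with cetuximab and 133 and 166 with PBS, log2 change 0.95 ± 0.19 (SE), adjusted p = 9e-05, with 0.82 in its neighbours. With each library's trend of signal with GC content removed, the adjusted p was 0.124 for MRPL23-AS1 and 0.2504 for FAM86C2P, and without SCC1 PBS replicate 1 it was 0.0675 for the latter.

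With only 2 PBS libraries in SCC1, the count of 289 called members became 59 without PBS replicate 1, 90 without PBS replicate 3 and 152 without cetuximab replicate 1. The split also depended on scaling: after subtracting its own median log2 signal from each library it was 242 higher and 93 lower, and the median change of all tested regions moved from -0.09 to 0.11.

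More lncRNA starts were called in SCC6. Of 2184 tested members, 281 (12.9%) rose, against 16.9% of all 86315 tested regions, and 296 (13.6%) fell, against 10.6%. KLHL6-AS1, ENSG00000236283 and ENSG00000205325 region 1 opened from low levels, and STAU2-AS1 fell as it did in SCC1.

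KLHL6-AS1 (chr3:183266060-183266387, antisense inside KLHL6, a gene of B cell receptor signalling) was 126, 86.3 and 125 with cetuximab and 10.9, 5.35 and 13.1 with PBS, log2 change 3.46 ± 0.29 (SE), adjusted p = 2.7e-13. ENSG00000205325 region 1 (chr17:14679215-14679859, intergenic) was 118, 93.8 and 113 with cetuximab and 10.9, 19.4 and 11.96 with PBS, log2 change 2.89 ± 0.26 (SE), adjusted p = 2.6e-12. ENSG00000236283 (chr2:165847756-165848710, intergenic) was 164, 172 and 169 with cetuximab and 19.3, 31.4 and 26.1 with PBS, log2 change 2.69 ± 0.21 (SE), adjusted p = 2.2e-14. In these 3 members every treated library was several times above every PBS library, and the neighbours' median changes were 0.04, 0.11 and 0.23. ENSG00000255491 (chr8:125868845-125869677, intergenic) rose from a high level, at 687, 789 and 716 with cetuximab and 359, 321 and 326 with PBS, log2 change 1.12 ± 0.08 (SE), adjusted p = 7e-16, with -0.23 in its neighbours.

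STAU2-AS1 in SCC6 was 56.6, 65.0 and 52.6 with cetuximab and 219.9, 176 and 171 with PBS, log2 change -1.68 ± 0.16 (SE), adjusted p = 2.4e-11, again with no overlap and with a median change of 0.07 among its neighbours. LINC02014 (chr3:129813088-129813772, antisense inside ALG1L2) was 68.7, 98.4 and 67.8 with cetuximab and 180.0, 192 and 182 with PBS, log2 change -1.25 ± 0.16 (SE), adjusted p = 1.6e-08. LINC03080 (chr15:99975089-99975801, intergenic) was 104, 105 and 98.5 with cetuximab and 197, 197 and 216 with PBS, log2 change -0.98 ± 0.13 (SE), adjusted p = 1.4e-07. LINC01588 region 3 (chr14:50474131-50474556, intergenic) was 52.5, 67.8 and 48.3 with cetuximab and 152, 136 and 148 with PBS, log2 change -1.37 ± 0.18 (SE), adjusted p = 3.3e-08. Each of these 3 groups of treated libraries lay below all PBS libraries, and the neighbours' medians were 0.18, -0.06 and -0.02. All 8 of these named calls held in each alternative fit. The split of all called members did not: centring gave 193 higher and 540 lower, and moved the median change of all tested regions from 0.11 to -0.07.

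In SCC25 only 2 of 2483 tested members passed the test, both less accessible with cetuximab, against 0.275% of all regions lower and 0.0405% higher. LINC01579 region 1 (chr15:94372476-94373150, intergenic) was 207, 216 and 200.1 with cetuximab and 318, 343 and 293 with PBS, log2 change -0.61 ± 0.11 (SE), adjusted p = 0.024, with -0.35 in its neighbours. ENSG00000244358 (chr3:145657250-145657707, intergenic) was 91.4, 65.8 and 65.5 with cetuximab and 127, 148.6 and 118 with PBS, log2 change -0.82 ± 0.18 (SE), adjusted p = 0.041, with 0.04 in its neighbours. In both the treated and PBS libraries did not overlap, as the choice of named members required, and neither call held with centring (adjusted p = 0.0632 and 0.0953). For LINC01579 region 1, without SCC25 PBS replicate 1 or 2 or 3 (each left out alone) its adjusted p was 0.163 to 0.220, and for ENSG00000244358, without SCC25 cetuximab replicate 2 or SCC25 PBS replicate 1 or 2 or 3 (each left out alone) its adjusted p was 0.0726 to 0.304. No member was called higher by limma. At an unadjusted p under 0.05 limma gave 289 of 2483 members in either direction, beside 13.2% of all regions. At an adjusted p under 0.05 edgeR called 18 of the 2483 members, beside 1.12% of all regions. DESeq2 called 3 of them, beside 0.307% of all regions.

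Over all 3 lines, with line as a covariate, 93 of 2367 tested members (3.93%) rose and 182 (7.69%) fell, against 5.14% and 7.04% of all regions. Of these 275 members, 251 had the same direction in each line, 77 higher and 174 lower. The call is on the change pooled over the lines, which favours a shared direction, so this count is not a separate result. The members that rose included LINC00885 and LINC02336, and those that fell included STAU2-AS1 and ENSG00000289249.

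LINC00885 region 1 (chr3:195869184-195869580, intergenic, 60.2 kb from TFRC, the transferrin receptor gene) was 142, 93.4 and 90.8 with cetuximab and 63.8 and 35.7 with PBS in SCC1, 83.8, 108 and 87.6 with cetuximab and 25.4, 38.8 and 46.8 with PBS in SCC6 and 73.1, 93.1 and 69.1 with cetuximab and 55.4, 57.0 and 36.5 with PBS in SCC25, log2 change 1.04 ± 0.17 (SE), adjusted p = 0.00055 over all lines. The groups were apart in each line. ENSG00000287840 (chr15:34277566-34277864, on the strand of AVEN and inside it, so its signal cannot be assigned to either transcript) had log2 change 1.88 ± 0.30 (SE), adjusted p = 0.00042, from means of 7.79 ± 3.63 (SD, n = 3) to 53.2 ± 10.2 (SD, n = 3) in SCC6. LINC02336 (chr13:90203024-90203625) had log2 change 0.83 ± 0.14 (SE), adjusted p = 0.00093, and LINC01213 (chr3:149956137-149956646) had log2 change 0.92 ± 0.15 (SE), adjusted p = 0.00066. By the interaction test described below, the effect at LINC02336 differed between lines, a call lost with centring (adjusted p = 0.203). In LINC01213 1 treated SCC1 library (89.5) fell inside the range of the PBS libraries (62.5 and 91.6). The neighbours' median changes of the 4 members were 0.16, -0.10, 0.16 and 0.08.

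STAU2-AS1 changed over all lines by -1.36 (adjusted p = 0.00024), and its SCC25 values were 84.4, 111 and 101 with cetuximab and 112, 138 and 126 with PBS, log2 change -0.34, which did not pass the test (adjusted p = 0.37). ENSG00000287423 (chr1:233679366-233679798, intergenic) was 195, 218 and 166 with cetuximab and 298 and 287 with PBS in SCC1, 110.1, 118 and 91.9 with cetuximab and 193, 190.0 and 169 with PBS in SCC6 and 61.9, 44.3 and 47.8 with cetuximab and 106, 82.9 and 80.6 with PBS in SCC25, log2 change -0.74 ± 0.10 (SE), adjusted p = 0.00018. ENSG00000258010 (chr15:80728859-80729388, antisense inside ARNT2, a bHLH-PAS transcription factor gene) had log2 change -0.82 ± 0.12 (SE), adjusted p = 0.00024, and ENSG00000289249 (chr4:170266373-170266907, intergenic) had log2 change -2.20 ± 0.33 (SE), adjusted p = 0.00026. In these 3 members the treated libraries were below the PBS libraries in every line, while their neighbours' medians were -0.14, -0.35 and 0.04.

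SCC1 and SCC6 share no libraries, so their calls can be set side by side. Among 2076 members tested in both, 270 were called in SCC1 and 551 in SCC6, and 100 in both, which is 37.0% of the SCC1 calls and 18.1% of the SCC6 calls. Of the 100, 76 had the same direction, 22 higher and 54 lower. Over all 69957 regions tested in both lines, 3068 were called in both, 36.5% of the SCC1 calls and 15.02% of the SCC6 calls, and 75.6% of these had the same direction, against 76.0% of the 100 members. LUCAT1 and STAU2-AS1 were among the members lower in both.

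Whether the treatment effect differed between lines was tested by the interaction of line and treatment. It was called for 300 of 2367 members (12.7%) against 13.2% of all tested regions. The 4 members with the smallest adjusted p changed more in SCC6 than in the other lines. ENSG00000236283 had log2 changes of 0.69 in SCC1, 2.69 in SCC6 and 0.25 in SCC25 (interaction adjusted p = 1.5e-07). LUARIS (chr7:43561967-43562445, antisense inside the ubiquitin ligase gene HECW1) was 99.0, 86.3 and 83.0 with cetuximab and 18.1, 21.4 and 14.1 with PBS in SCC6 and 91.4, 70.1 and 57.9 with cetuximab and 91.1 and 81.5 with PBS in SCC1 (adjusted p = 3.6e-07). ENSG00000288700 (chr3:134316325-134316810, intergenic) was 184, 247 and 175 with cetuximab and 409 and 296 with PBS in SCC1 and 284, 251 and 255 with cetuximab and 103, 121 and 109.8 with PBS in SCC6, so that it fell in SCC1 (log2 change -0.80 ± 0.18 (SE), adjusted p = 0.00067) and rose in SCC6 (log2 change 1.24 ± 0.13 (SE), adjusted p = 8.4e-11). Its interaction adjusted p was 5.2e-07, and without SCC1 PBS replicate 1 the fall in SCC1 had an adjusted p of 0.293. ENSG00000287212 (chr9:93683333-93683812, intergenic) was 56.6, 60.3 and 75.4 with cetuximab and 13.3, 13.4 and 16.3 with PBS in SCC6 and 155, 171 and 146 with cetuximab and 183 and 220.0 with PBS in SCC1 (adjusted p = 1.1e-06). The SCC6 PBS libraries were the lowest of all groups for ENSG00000236283, LUARIS, ENSG00000288700 and ENSG00000287212, and with cetuximab the first 3 of these reached or passed the range of another line.

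**Figure D2:**
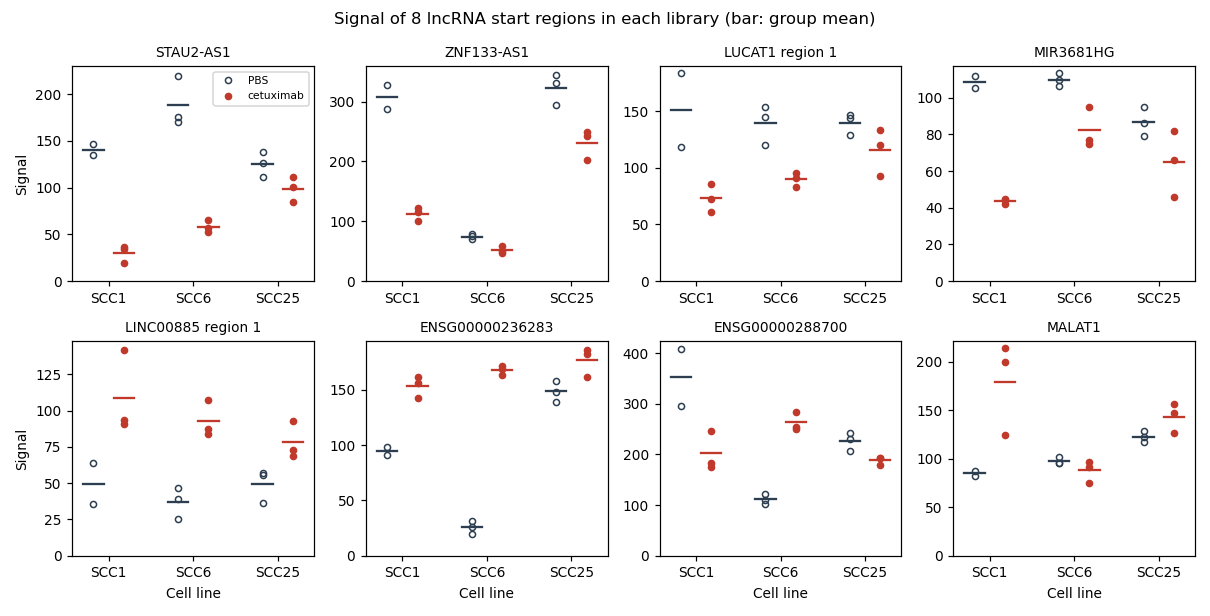
Deposited signal (y axis, from 0) of 8 lncRNA start regions in each library of SCC1, SCC6 and SCC25 with PBS or cetuximab (x axis), 1 point per library with the group mean as a bar. STAU2-AS1 falls in SCC1 and SCC6, ENSG00000236283 rises in SCC6 from 19.3 to 31.4 with PBS to 164 to 172 with cetuximab, and ENSG00000288700 moves in opposite directions in SCC1 and SCC6.

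The direction of change went with base composition, and not in the same way in each line. Across members, Spearman's rho between GC content and log2 change was 0.266 in SCC1 (n = 2488), -0.201 in SCC6 (n = 2184) and 0.191 in SCC25 (n = 2483), while over all tested regions it was 0.173, -0.346 and 0.154. These points share libraries and are not independent. In SCC1, 58 of 682 tested CpG-rich members rose and 10 fell, with a median change of 0.15, whereas 66 of 1806 CpG-poor members rose and 155 fell, with a median of -0.16. In SCC6 the CpG-rich members went the other way, 9 higher and 61 lower of 596 (median -0.13), and the CpG-poor members were 272 higher and 235 lower of 1588 (median 0.01). The median change of members in SCC1 was -0.05, between 0.21 at protein-coding starts and -0.18 in distal regions, and in SCC6 it was -0.05, between -0.12 and 0.24. In SCC25 it was -0.06, between 0.03 and -0.12. Removing the GC trend of each library left 30 higher and 64 lower members in SCC1 and 304 and 186 in SCC6. The part of library base composition in these results was not tested further.

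**Figure D3:**
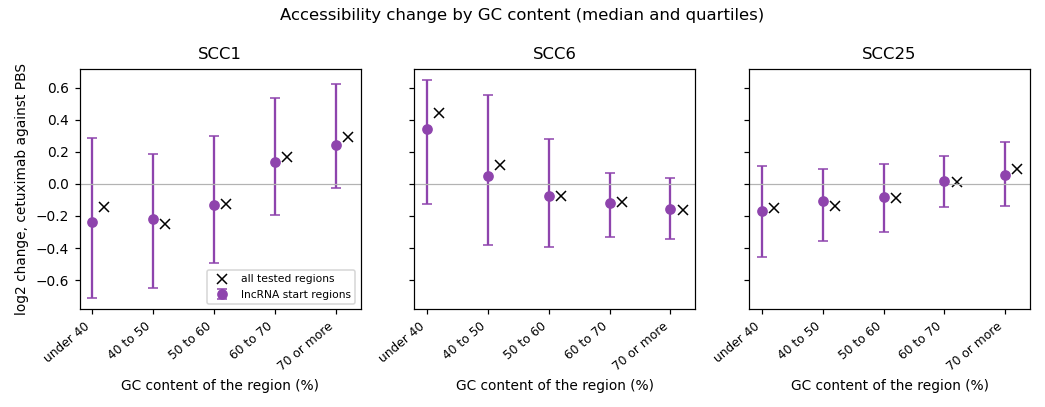
Median log2 change with cetuximab (y axis) of lncRNA start regions and of all tested regions, by GC content of the region (x axis, 5 classes, percent), in SCC1, SCC6 and SCC25, with quartiles as bars for the members. The change rises with GC content in SCC1 and SCC25 and falls with it in SCC6, with Spearman's rho for members of 0.266, 0.191 and -0.201.

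A member's change can also be set beside that of the nearest region at a protein-coding start. In SCC1 Pearson's r between the changes was 0.220 over 2415 members, 0.462 over the 379 members under 20 kb from that start and 0.167 over the 2036 farther away. In SCC6 it was 0.0714 (n = 2064) and in SCC25 0.0396 (n = 2411). Neighbouring members share a protein-coding start, and all points share libraries and their GC trend, so these are descriptions.

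MicroRNA host genes are transcripts whose processing releases a microRNA. For each gene in this and the following lists, the member with the highest mean signal was taken. All 35 such genes with a region had 57 regions, of which 30 or 31 of the 35 best ones were tested in each fit. In SCC1, 1 of 30 rose, MIR210HG, and 2 fell, MIR3681HG and MIR3142HG, beside 4.58% and 6.56% of all regions, with a median change over the list of 0.09 beside -0.09 over all tested regions. MIR210HG (chr11:568341-568844), host of the hypoxia-induced miR-210, was 239, 152 and 219 with cetuximab and 98.9 and 105 with PBS, log2 change 0.96 ± 0.22 (SE), adjusted p = 0.00056. Its neighbours had a median change of 0.89, close to its own, and the adjusted p was 0.414 with the GC trend removed and 0.0569 without SCC1 PBS replicate 1. MIR3681HG (chr2:12246433-12246772) was 44.4, 44.8 and 42.3 with cetuximab and 105 and 112 with PBS, log2 change -1.29 ± 0.30 (SE), adjusted p = 0.0009, and fell over all lines too (-0.68, adjusted p = 0.0039). MIR3142HG (chr5:159894700-159895265), which also hosts miR-146a, a microRNA induced by NF-kB, was 22.8, 29.2 and 17.2 with cetuximab and 55.9 and 74.8 with PBS, log2 change -1.48 ± 0.39 (SE), adjusted p = 0.0043. Without SCC1 PBS replicate 1 or 3 the adjusted p in SCC1 was 0.0623 and 0.0700 for MIR3681HG and 0.0697 and 0.209 for MIR3142HG.

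In SCC6, 2 of 31 microRNA hosts rose and 2 fell, beside 16.9% and 10.6% of all regions, with a list median of -0.03 beside 0.11 over all regions. MIR2117HG region 1 (chr17:41521449-41522188) was 33.3, 34.4 and 49.3 with cetuximab and 9.67, 18.7 and 8.70 with PBS, log2 change 1.63 ± 0.34 (SE), adjusted p = 0.00017, with no overlap. MIR4435-2HG region 1 (chr2:111966680-111966833) was 24.2, 2.79 and 17.9 with cetuximab and 2.42, 2.01 and 3.26 with PBS, log2 change 1.79 ± 0.68 (SE), adjusted p = 0.043, and 1 treated library lay among the PBS libraries. MIR100HG region 3 (chr11:122073131-122074177), at the host of the miR-100 and let-7a sequences shown above, was 5.05, 9.28 and 11.2 with cetuximab and 22.96, 14.1 and 25.01 with PBS, log2 change -1.21 ± 0.42 (SE), adjusted p = 0.028. It also fell over all lines (-0.62, adjusted p = 0.02). MIRLET7A1HG (chr9:96928149-96929379), another let-7a host, fell slightly in SCC6 (log2 change -0.26 ± 0.08 (SE), adjusted p = 0.015), and its change was 0.04 with the GC trend removed. With that trend removed the adjusted p was 0.0649 for MIR100HG region 3 and 0.0602 for MIR4435-2HG region 1, which had 0.0643 with centring and 0.106 with quantile normalization. For MIR100HG region 3 in SCC6, without SCC6 cetuximab replicate 1 or SCC6 PBS replicate 1 or 3 (each left out alone) its adjusted p was 0.0878 to 0.120. For MIRLET7A1HG, without SCC6 cetuximab replicate 1 or SCC6 PBS replicate 1 (each left out alone) its adjusted p was 0.0644 to 0.0827, and for MIR4435-2HG region 1, without SCC6 PBS replicate 1 or 2 or 3 (each left out alone) its adjusted p was 0.0515 to 0.0952. In SCC25 neither called member was at a microRNA host.

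snoRNA host genes are mostly growth-related transcripts whose introns give the small RNAs that guide ribosomal RNA modification. The list held the SNHG genes that had a region, and GAS5, DANCR, ZFAS1 and EPB41L4A-AS1 whether or not they had one. Of these 20 genes, 18 had a region and were tested, a share largely fixed by that choice. In SCC1, 2 of 18 rose, SNHG30 and SNHG25, beside 4.58% of all regions. In SCC6 DANCR alone fell, beside 10.6% of all regions. The list medians were 0.32 in SCC1 and -0.12 in SCC6, beside -0.09 and 0.11 over all regions. Protein-coding starts had medians of 0.21 in SCC1 and -0.12 in SCC6. SNHG25 (chr17:62223027-62223503) was 156, 136 and 182 with cetuximab and 71.6 and 90.4 with PBS in SCC1, log2 change 0.95 ± 0.24 (SE), adjusted p = 0.002, and without SCC1 PBS replicate 1 the adjusted p was 0.173. SNHG30 (chr17:33894809-33895252) was 154, 127 and 136 with cetuximab and 83.3 and 88.2 with PBS, log2 change 0.68 ± 0.24 (SE), adjusted p = 0.043. DANCR (chr4:53578248-53579143) was 243, 249 and 239 with cetuximab and 312, 279.7 and 295 with PBS in SCC6, log2 change -0.28 ± 0.10 (SE), adjusted p = 0.035, a small difference in a strongly open region. Over all lines DANCR (-0.25, adjusted p = 0.022) and SNHG5 (-0.24, adjusted p = 0.044) fell. With the GC trend removed the adjusted p was 0.294 for SNHG30, 0.988 for DANCR in SCC6, and 0.0582 and 0.0837 for DANCR and SNHG5 over all lines, where centring gave 0.0915 and 0.133. For SNHG30, without SCC1 cetuximab replicate 1 or 3 or SCC1 PBS replicate 1 or 3 (each left out alone) its adjusted p was 0.0812 to 0.339, and for DANCR in SCC6, without SCC6 cetuximab replicate 1 or 2 or 3 or SCC6 PBS replicate 1 or 3 (each left out alone) its adjusted p was 0.0667 to 0.115. Over all lines, for DANCR without SCC1 PBS replicate 1 its adjusted p was 0.0502, and leaving out 11 of the single libraries gave 0.0510 to 0.0828 for SNHG5.

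Of 6 abundant lncRNAs, MALAT1, NEAT1, NORAD and KCNQ1OT1 had a member. MALAT1, a nuclear speckle RNA whose CpG island is printed above, was 199, 125 and 214 with cetuximab and 87.2 and 82.6 with PBS in SCC1, 97.0, 75.2 and 91.6 with cetuximab and 95.4, 102 and 95.7 with PBS in SCC6 and 156, 127 and 147 with cetuximab and 123, 117 and 129 with PBS in SCC25. It rose in SCC1 (log2 change 1.03 ± 0.23 (SE), adjusted p = 0.00046), where the groups did not overlap, while its SCC6 and SCC25 changes were -0.16 and 0.22 and did not pass. NEAT1 (chr11:65189739-65189855), the scaffold of paraspeckles, was 66.0, 44.8 and 62.6 with cetuximab and 26.0 and 12.3 with PBS in SCC1, log2 change 1.61 ± 0.38 (SE), adjusted p = 0.0012. The adjusted p with the GC trend removed was 0.246 for MALAT1 and 0.238 for NEAT1, and 0.164 for NEAT1 without SCC1 PBS replicate 3. These genes lie next to each other, and their neighbourhoods had median changes of 0.76 and 0.75. The treatment effect differed between lines for MALAT1, NEAT1 and NORAD, a cytoplasmic RNA that binds Pumilio proteins (interaction adjusted p = 0.0079, 0.0039 and 0.031). All 3 of these calls failed with the GC trend removed (adjusted p = 0.299, 0.100 and 0.417). For NORAD, without SCC1 PBS replicate 3 or SCC6 cetuximab replicate 1 or 2 or SCC6 PBS replicate 1 or 2 or 3 (each left out alone) its adjusted p was 0.0583 to 0.0997. KCNQ1OT1, the imprinted antisense RNA of KCNQ1, had changes of 0.54, 0.01 and 0.10 in SCC1, SCC6 and SCC25, none of which passed.

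Of 12 epithelial and squamous lncRNAs, 6 had a member and 5 were tested. LUCAT1 region 1 (chr5:90607530-90607966), at a stress-induced lncRNA and with the AP-1 letters shown above, was 60.9, 72.02 and 86.1 with cetuximab and 183 and 118 with PBS in SCC1, 82.8, 95.6 and 90.9 with cetuximab and 145, 120.4 and 153 with PBS in SCC6 and 92.8, 134 and 120.4 with cetuximab and 147, 129 and 144 with PBS in SCC25. It fell in SCC1 (log2 change -1.02 ± 0.26 (SE), adjusted p = 0.0025), in SCC6 (log2 change -0.63 ± 0.16 (SE), adjusted p = 0.0019) and over all lines (log2 change -0.62 ± 0.13 (SE), adjusted p = 0.0033), and the groups overlapped in SCC25. Without SCC1 PBS replicate 1 the adjusted p in SCC1 was 0.371. The median change of its neighbours was -0.12 in SCC1 and 0.29 in SCC6. It was the only tested member of the list called in a treatment comparison, and the list medians were 0.26 in SCC1 and -0.20 in SCC6. CYTOR was near the floor in all libraries, at most 7.27. The best region of UCA1 is also a start of LINC01764.

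Of 22 lncRNAs known from cancer, 11 had a member. LINC00460 fell in SCC1, SCC6 and over all lines, and region 3 of PVT1, in the MYC locus, fell in SCC1 and rose in SCC6. Of the other PVT1 regions only region 2 was called in either line, higher in SCC6 (log2 change 0.67, adjusted p = 0.011). LINC00460 (chr13:107028768-107029221) was 77.4, 83.7 and 70.4 with cetuximab and 137 and 131 with PBS in SCC1 (log2 change -0.79 ± 0.26 (SE), adjusted p = 0.026) and 55.6, 50.1 and 51.2 with cetuximab and 80.9, 79.0 and 71.8 with PBS in SCC6 (log2 change -0.55 ± 0.21 (SE), adjusted p = 0.039). PVT1 region 3 (chr8:128866230-128867095) was 395, 333 and 421 with cetuximab and 595 and 454 with PBS in SCC1 (log2 change -0.45 ± 0.15 (SE), adjusted p = 0.03) and 618, 613 and 641 with cetuximab and 472, 449 and 382 with PBS in SCC6 (log2 change 0.53 ± 0.08 (SE), adjusted p = 6.5e-07), and the effects differed between lines (interaction adjusted p = 0.0014, and 0.0727 with centring). CASC15 region 8 (chr6:22236896-22237390) rose in SCC6, from 124 ± 24.6 (SD, n = 3) to 219 ± 13.4 (SD, n = 3) (log2 change 0.83 ± 0.13 (SE), adjusted p = 3.7e-06), and CASC9 region 2 (chr8:76236498-76237147) rose in SCC1, from 88.8 ± 13.4 (SD, n = 2) to 147 ± 20.02 (SD, n = 3) (log2 change 0.72 ± 0.24 (SE), adjusted p = 0.028). The SCC1 calls of LINC00460, PVT1 region 3 and CASC9 region 2 each failed in 7 or more of 13 alternative fits, with an adjusted p without SCC1 PBS replicate 1 of 0.301, 0.656 and 0.411. For LINC00460 in SCC6, without SCC6 cetuximab replicate 2 or SCC6 PBS replicate 1 or 2 or 3 (each left out alone) its adjusted p was 0.0586 to 0.113. The list medians were 0.25 in SCC1 and -0.01 in SCC6.

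Some lncRNA genes have many alternative starts, and 269 genes had 2 or more members. LINC00511 had 12, CASC15 8, MIR100HG 7, and MIR99AHG, LINC00963 and PVT1 6 each. Starts of the same gene could differ in level and in direction. LINC00511 had a median signal over its 12 regions of 95.0 in SCC1, 60.01 in SCC6 and 33.1 in SCC25, but region 2 (chr17:70345614-70345944) was 76.0 in SCC1 and 2.09 in SCC6, while region 10 (chr17:70598801-70599456) was 91.0 and 142. Of its regions, 1 and 5 passed the test in SCC6, both upwards (log2 change 0.68 and 0.43, adjusted p = 0.0007 and 0.031), and the second was lost with centring (adjusted p = 0.244). Region 10 was lower with cetuximab in SCC1 (log2 change -0.82, adjusted p = 0.026). CASC15 region 2 (chr6:21885744-21886142) rose from a mean of 7.15 to 51.1 in SCC6 (log2 change 2.99, adjusted p = 8.1e-06) while region 7 fell (-0.41, adjusted p = 0.049). Starts of PVT1 were open in all lines, with medians of 144.5, 212 and 125.8 in SCC1, SCC6 and SCC25.

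The 2 microRNA hosts with matching seeds were both low in SCC6. MIR100HG had a median over its 7 regions of 48.0 in SCC1, 4.21 in SCC6 and 61.2 in SCC25, and 5 of the 7 were under 10 in SCC6. MIR99AHG had medians of 29.9, 7.33 and 19.4 over 6 regions, and 4 of the 6 were under 10 in SCC6. Its region 6 (chr21:17960472-17961063) was open in all lines nonetheless, at 91.3 ± 10.7 (SD, n = 2) in SCC1 PBS, 83.5 ± 15.7 (SD, n = 3) in SCC6 PBS and 133 ± 9.23 (SD, n = 3) in SCC25 PBS. Accessibility at a host's start does not measure the mature microRNA.

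**Figure D4:**
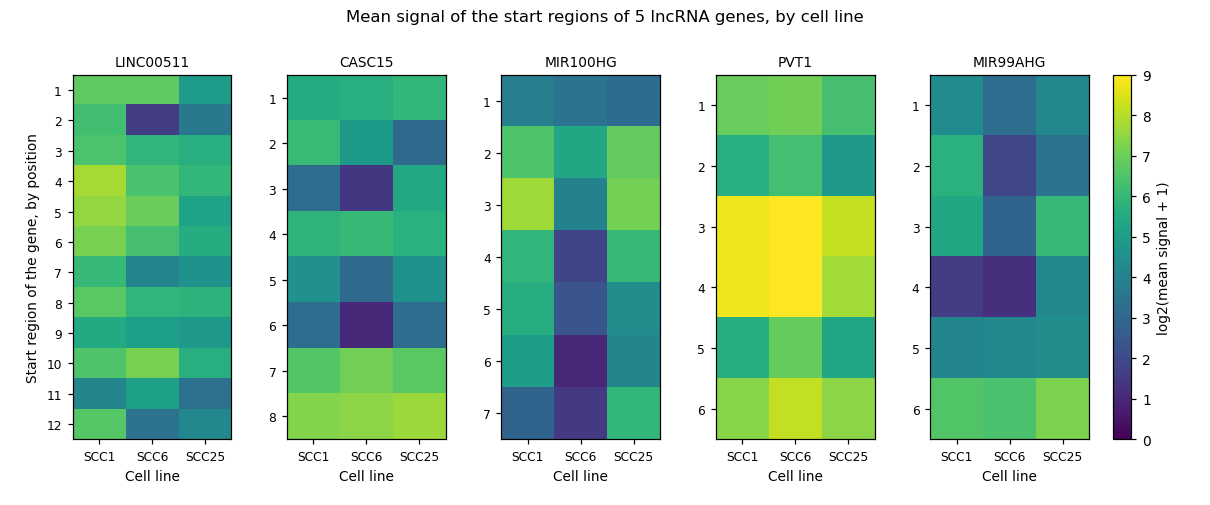
Heat map of log2(mean signal + 1) for each start region of LINC00511, CASC15, MIR100HG, PVT1 and MIR99AHG (rows) in SCC1, SCC6 and SCC25 (columns), with the mean taken over all libraries of a line. MIR100HG is low in SCC6, with 5 of 7 regions under a signal of 10, and the starts of PVT1 are open in all lines.

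The untreated lines differed at many lncRNA starts. SCC6 PBS against SCC1 PBS gave 605 members higher and 833 lower of 2375 tested (25.5% and 35.1%), against 30.7% and 30.5% of all regions. SCC25 PBS against SCC1 PBS gave 586 (24.7%) and 669 (28.2%), against 28.2% and 23.1%. SCC25 PBS against SCC6 PBS gave 862 (36.3%) and 701 (29.5%), against 36.7% and 32.1%. These comparisons share libraries pairwise. With centring the first became 439 higher and 1119 lower and the second 413 and 1106, with the median of all regions moving from -0.06 to -0.39 and from -0.04 to -0.52. Copy number differs between tumour lines and cannot be told apart from accessibility here. The median difference of all other regions within 1 Mb is given beside many of the values below, but not beside all.

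LINC00662 (chr19:28284036-28285310, intergenic) was nearly closed in SCC1 and wide open in the others, at 35.1 and 26.8 in SCC1 PBS, 648, 575 and 648 in SCC6 PBS and 512, 519.9 and 495 in SCC25 PBS. The log2 difference from SCC1 was 4.30 for SCC6 (adjusted p = 3.6e-12; neighbours 2.58) and 4.01 for SCC25 (adjusted p = 4.2e-11; neighbours 0.27), with only 8 neighbours. GUCY2C-AS1 (chr12:14818168-14819302, antisense inside GUCY2C, the intestinal guanylate cyclase C gene) was 16.9 and 15.6, 253, 242 and 245 and 181, 175 and 157 in the same order, log2 difference 3.84 ± 0.15 (SE), adjusted p = 1.1e-10 for SCC6 and log2 difference 3.31 ± 0.15 (SE), adjusted p = 7.6e-10 for SCC25. Its neighbours differed by medians of only 0.13 and 0.02. ENSG00000277270 (chr20:60011325-60012254, antisense inside the cadherin gene CDH4) had log2 differences of 3.46 and 3.87 (adjusted p = 3.1e-10 and 3.2e-10), and the nearest region at a CDH4 start had 3.61 and 3.22.

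Lower in SCC6 than in SCC1 were LINC01704, ENSG00000290695 and ENSG00000286358. LINC01704 region 1 (chr1:158115986-158116823, intergenic) was 445 and 440.0 in SCC1 PBS, 38.7, 36.1 and 23.9 in SCC6 PBS and 361, 331 and 346 in SCC25 PBS, log2 difference -3.74 ± 0.17 (SE), adjusted p = 6.5e-10 for SCC6 against SCC1, with -0.54 in its neighbours. ENSG00000290695 (chr11:124351599-124352987, pseudogene-tagged and so uncertain) had log2 difference -4.13 ± 0.19 (SE), adjusted p = 6.5e-10, with -1.03 in its neighbours, and was higher in SCC25 than in SCC6 by 3.94 (adjusted p = 2.4e-10). ENSG00000286358 (chr2:194035488-194036074, intergenic) was open only in SCC1 among the PBS libraries, at 59.8 and 56.9 against 1.21, 0.669 and 1.09 in SCC6 and 1.88, 0.721 and 1.70 in SCC25.

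SCC25 was set apart by LNCRNA-IUR, LINC00511 and LINC01910. LNCRNA-IUR (chr11:94884297-94885011, intergenic) was 329 and 300.4 in SCC1 PBS, 215, 169 and 215 in SCC6 PBS and 29.0, 25.2 and 21.2 in SCC25 PBS, log2 difference -3.60 ± 0.18 (SE), adjusted p = 1.9e-09 for SCC25 against SCC1, with -1.50 in its neighbours. LINC00511 region 5 (chr17:70418736-70419400) had log2 difference -2.80 ± 0.18 (SE), adjusted p = 2.3e-08 in the same comparison, with -1.01 in its neighbours. LINC01910 (chr18:68051413-68052114, intergenic) was 190.0 and 124, 22.96, 24.1 and 23.9 and 495, 503 and 495 in SCC1, SCC6 and SCC25 PBS, log2 difference 4.34 ± 0.15 (SE), adjusted p = 3e-11 for SCC25 against SCC6, with 0.95 in its neighbours. The strongly open ENSG00000271252 was higher in SCC25 than in SCC6 by 2.58, with 2.25 in its neighbours, and ENSG00000289159 higher in SCC25 than in SCC1 by 1.72, with 1.55.

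Lower in SCC25 than in SCC6 were ENSG00000255482, ENSG00000265987 and ENSG00000286924 region 2. ENSG00000255482 (chr11:102337863-102338737, antisense inside TMEM123) was 643, 626 and 723 in SCC6 PBS against 16.2, 21.6 and 16.97 in SCC25 PBS, log2 difference -5.12 ± 0.16 (SE), adjusted p = 1e-11. The 165 other regions within 1 Mb differed by a median of -3.54, and in SCC6 against SCC1 by 3.40, so the median region of the segment was also higher in SCC6. ENSG00000265987 (chr17:73340371-73340570, antisense inside GRB2, an adaptor gene of EGFR signalling) was 52.0, 42.8 and 48.9 in SCC6 PBS and at or near the floor in the other PBS libraries, while its neighbours differed by -0.38 between SCC25 and SCC6. Against a floor of 3 reads per library it was at least 18.8-fold higher in SCC6 than in SCC25 and at least 12.3-fold higher than in SCC1. ENSG00000286924 region 2 (chr10:23422087-23422286, intergenic) was in the same way at least 11.7-fold and 7.65-fold higher in SCC6.

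Among microRNA hosts, 8 of 30 tested were higher and 5 lower in SCC6 than in SCC1, 6 higher and 8 lower in SCC25 than in SCC1, and 6 higher and 10 lower in SCC25 than in SCC6. Of all tested regions, 30.7% and 30.5%, 28.2% and 23.1%, and 36.7% and 32.1% were higher and lower in the same comparisons. MIR4432HG (chr2:60570070-60570268) was 182, 155 and 175 in SCC6 PBS and 1.30 and 3.35 in SCC1 PBS, at least 43.8-fold higher against the floor of 3 reads per library. MIR3142HG was 55.9 and 74.8 in SCC1 PBS, 1.21, 2.01 and 1.09 in SCC6 PBS and 87.8, 83.7 and 86.5 in SCC25 PBS, at least 18.04-fold lower in SCC6 than in SCC1. The neighbours of MIR3142HG differed by 1.24 in the opposite direction. MIR205HG (chr1:209601941-209602230), host of the epithelial miR-205, was 131 ± 21.6 (SD, n = 2), 133 ± 26.1 (SD, n = 3) and 58.8 ± 16.5 (SD, n = 3) in SCC1, SCC6 and SCC25 PBS, and lower in SCC25 than in SCC1 (-1.17, adjusted p = 0.00073). MIR100HG region 3 was lower in SCC6 than in SCC1, log2 difference -3.51 (adjusted p = 4.1e-09), with -1.08 in its neighbours.

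More snoRNA hosts were lower than higher in SCC25. Of 18 tested, none was higher and 6 were lower in SCC25 than in SCC1, and 3 were higher and 11 lower in SCC25 than in SCC6, with list medians of -0.31 and -0.58 beside -0.04 and 0.06 over all regions. The lower calls compare with 23.1% and 32.1% of all regions and with 32.4% and 44.6% of protein-coding starts, whose medians were -0.19 and -0.32. SNHG10 (chr14:95991005-95991477) differed most, at 75.5 and 65.9 in SCC1, 106, 134 and 108 in SCC6 and 11.7, 11.5 and 19.5 in SCC25. SNHG15 was lower in SCC25 than in SCC1, log2 difference -0.94 (adjusted p = 0.00019), and SNHG12 was lower in SCC6 than in SCC1, log2 difference -1.17 (adjusted p = 0.00073). Of the cancer list, taking the best region of each gene, 7 of 11 were lower and none higher in SCC6 than in SCC1. In that comparison 35.1% of members and 30.5% of all regions were lower. Other regions of the listed genes were called in both directions: PVT1 regions 5 and 6 and LINC00511 region 11 were higher in SCC6, and several others of LINC00511 were lower. PURPL, a p53-regulated lncRNA (chr5:27217480-27218347, intergenic), was 54.6 and 42.4 in SCC1, 6.04, 14.7 and 8.70 in SCC6 and 210.3, 190.4 and 216 in SCC25, log2 difference 4.33 ± 0.27 (SE), adjusted p = 1.2e-09 for SCC25 against SCC6.

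**Figure D5:**
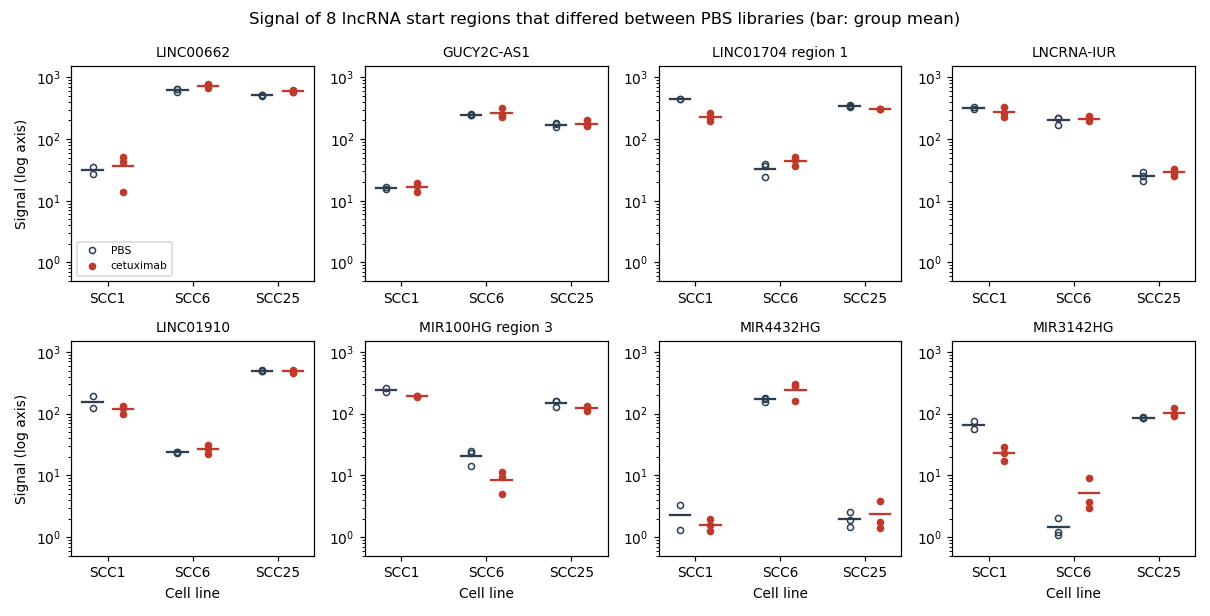
Deposited signal (y axis, log scale) of 8 lncRNA start regions in each PBS and cetuximab library of SCC1, SCC6 and SCC25 (x axis), 1 point per library with the group mean as a bar. LINC00662 and GUCY2C-AS1 are low in SCC1, MIR4432HG is high only in SCC6, and LNCRNA-IUR is low in SCC25.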

How the data were processed

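ATAC-seq libraries of SCC1, SCC6 and SCC25 with cetuximab or PBS were grouped by their labels, 17 in all. Per the submitters' processing notes, the authors used Trim Galore 0.5.0, Bowtie2 2.3.2, Picard 2.18, SAMtools 1.9 and MACS2 on hg19. The deposited table holds a signal per region, made by the authors with DiffBind from peaks of all libraries. The deposited peak lists give a fold enrichment (ratio) and -log10 p and q values from MACS2 per library. Region starts are printed as in the table and equal the zero-based starts of the peak lists. The signal was an exact multiple (within 0.001) of 1 step per library, so whole reads were recovered for edgeR and DESeq2. There were 0 columns of no sample.

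From these files, members were found with GENCODE release 44, and their letters were read from the GRCh37 genome. The main test was limma (trend, robust, two-sided) on log2(signal + 1) after dropping the lowest 25% of regions by mean signal, with Benjamini-Hochberg adjustment over all tested regions. Each line was fitted alone, all lines together with line as a covariate, with the interaction F-test, and the PBS libraries of the 3 lines in 1 fit. Alternatives were centring, quantile normalization, a pseudocount of 5, no filter, edgeR, DESeq2, removal of the GC trend, a replicate block and leaving out each library. Replicates differed by more than sampling noise, with a chi-square of 1.91 to 3.51 times its degrees of freedom in 16 pairs. The fits were tested on simulated data. Depth limits small changes at weak regions, and counting intervals were not used because reads without molecular identifiers are not independent molecules.

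Named regions were, per treatment comparison, the 4 called members of each direction with the smallest adjusted p whose groups did not overlap (or, over all lines, whose direction was shared by every line), per PBS comparison 3 of each direction, the 4 smallest for the interaction, the 5 with the highest mean signal, and the best region of each listed gene. Other regions of genes with several starts were chosen after their values were seen. The members and lists were chosen with earlier results of these data known. Analyses used R 4.3.3, limma 3.58.1, edgeR 4.0.16, DESeq2 1.42.0, Python 3.11.15, numpy 2.4.6, pandas 2.3.3, matplotlib 3.10.9 and pysam 0.24.0.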

Additional observations from a re-analysis of the deposited data

Results flagged for a closer look

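The effect of cetuximab differed between the 3 lines, by limma's F-test of the line-by-treatment interaction, for the regions below. Many were named for small p-values in these comparisons, so their number is not a result. Over all members the share was 12.7%, beside 13.2% of all tested regions. The smallest adjusted p were those of ENSG00000236283 (1.52e-07), LUARIS (3.63e-07), ENSG00000288700 (5.17e-07) and ENSG00000287212 (1.05e-06). Most other regions named for a rise in SCC6 followed, with ENSG00000255491 at 4.63e-06, ENSG00000205325 region 1 at 1.64e-05, KLHL6-AS1 at 2.34e-05, CASC15 region 8 at 0.00025 and MIR2117HG region 1 at 0.0233.

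Among regions lower in SCC1, SCC6 or SCC25 the adjusted p was 3.16e-05 for LINC01588 region 3, 0.000214 for STAU2-AS1, 0.00172 for ENSG00000233096, 0.00351 for LINC01579 region 1, 0.00358 for MIR3142HG, 0.00416 for ZNF133-AS1, 0.0186 for ENSG00000290827 and 0.0379 for LINC03080. The SCC25 change of STAU2-AS1 was -0.34 and did not pass the test.

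Regions higher in SCC1 included ENSG00000231705 (0.00129), ENSG00000258115 (0.0015), NEAT1 (0.00387), MALAT1 (0.00786), MIR210HG (0.0202), FAM86C2P (0.0226), SNHG25 (0.0307) and CASC9 region 2 (0.0409). PVT1 region 3, lower in SCC1 and higher in SCC6, had 0.00141. NORAD (0.0309) and LINC01503 region 2 (0.0369) passed the interaction test without a call in any single line. Interaction calls were also made for named regions not listed here, among them LINC02336, LINC02018, GASAL1 region 1 and ENSG00000271252. Each of these calls was lost in several alternative fits.

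Some of these interaction calls depended on the fit. With the GC trend removed the adjusted p was 0.518 for MIR210HG, 0.497 for FAM86C2P, 0.539 for LINC01503 region 2, 0.267 for LINC03080, 0.0832 for CASC9 region 2, 0.0776 for SNHG25, 0.0695 for MIR2117HG region 1 and 0.0502 for ENSG00000290827, and with quantile normalization it was 0.0590 for LINC01503 region 2, 0.0722 for CASC9 region 2 and 0.0681 for ENSG00000290827. CASC9 region 2 had 0.0511 with a replicate block. Without SCC1 PBS replicate 1 it was 0.177 for SNHG25, 0.159 for FAM86C2P, 0.136 for CASC9 region 2 and 0.0849 for LINC01503 region 2. Of the single libraries left out, the number that lost the call was 11 for CASC9 region 2 (adjusted p up to 0.136), 11 for LINC03080 (adjusted p up to 0.0910), 8 for LINC01503 region 2 (adjusted p up to 0.108), 7 for SNHG25 (adjusted p up to 0.177), 6 for MIR2117HG region 1 (adjusted p up to 0.0751), 5 for FAM86C2P (adjusted p up to 0.159), 3 for MIR210HG (adjusted p up to 0.0912) and 2 for ENSG00000290827 (up to 0.0954).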

How the results depend on the processing

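Of 139 alternative counts and shares, 119 stayed within 1.5 times the reported value or its spread. In SCC1 the 289 called members became 170 with DESeq2, 94 with the GC trend removed and 59 to 382 with single libraries left out. In SCC25 the 2 called members became 0 with centring, 4 with quantile normalization, 8 with a pseudocount of 5, 7 without the filter, 18 with edgeR, 1 with the GC trend removed and 0 to 11 with single libraries left out. The 300 interaction calls became 482 with centring and 492 with edgeR. The median share of members under a peak over the libraries, 50.1%, was 28.2% when 50% of the region had to be covered and 18.3% for peaks with -log10 q of at least 5. Same-numbered libraries did not deviate together (r of -0.0420 to 0.0265 in 8 pairs), so the numbers were not taken as pairs. With a replicate block the counts were 375 in SCC1, 585 in SCC6, 16 in SCC25, 242 over all lines, 298 for the interaction and 1388, 1178 and 1551 for the PBS comparisons. Beside the splits given with the results, that into higher and lower moved by over 10 percentage points in SCC1 with quantile normalization (180 and 156), edgeR (178 and 156), DESeq2 (99 and 71) and without SCC1 cetuximab replicate 1 (42 and 110), in SCC6 with quantile normalization (236 and 381) and DESeq2 (186 and 305), and over all lines with DESeq2 (158 and 197). With the GC trend removed the PBS splits were 845 and 577 for SCC6 against SCC1, 675 and 513 for SCC25 against SCC1 and 708 and 860 for SCC25 against SCC6. For 70 named results, 1040 of 1142 alternative fits kept direction and call, 101 kept direction only, and the fall of MIRLET7A1HG in SCC6 reversed to a log2 change of 0.0427 with the GC trend removed. The cause was not tested.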
